A study of Mus musculus with 7 samples.

Results

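The genes described here are those of the core cell cycle machinery: the cyclins, the cyclin-dependent kinases (CDKs), their inhibitors of the INK4 and CIP/KIP families, and the E2F transcription factors. They were chosen by gene symbol alone, as every probe set of the array annotated to a single symbol of the form Ccn plus a letter, Cdk plus a number, Cdkn1 to Cdkn3, or E2f plus a number. This gave 61 genes on 67 probe sets, out of 35556 probe sets measured. Those with a single symbol stood for 19938 genes. A probe set is the group of oligonucleotides that reports 1 transcript. The inhibitor gene Cdkn1a was taken from a probe set that also carries the symbol 4930567H12Rik, and Ccnb1, the cyclin B1 gene, was not analysed here. Of the 61 genes, 6 had 2 probe sets each.

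The cells came from 7 individual mice of the outbred ICR background at postnatal day 25, all carrying insulin-Cre and the Rosa26-LSL-YFP reporter. The 3 weaned mice had been separated from the dam early, on day 18, and the 4 suckling mice were still nursing at day 25. Between 2000 and 6000 YFP-positive cells per mouse were sorted by flow cytometry, and the total RNA of each mouse was amplified and hybridised to 1 Affymetrix array. YFP marks any cell in which the insulin-driven recombinase has ever acted, so the sort rests on the cell type specificity of that transgene. Values are given as log2 of the deposited intensity ("log2 units"), differences are weaned minus suckling on that scale, and p-values come from limma fitted to all probe sets, with Benjamini-Hochberg adjustment over all 35556. The comparison asks how early weaning relates to gene expression in beta cells of matched age.

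Cell division is driven in order by cyclin-CDK pairs. D-type cyclins with Cdk4 or Cdk6 begin to phosphorylate the retinoblastoma protein in G1, cyclin E and cyclin A with Cdk2 complete this and start DNA synthesis, and cyclin B with Cdk1 drives mitosis. Phosphorylation of the retinoblastoma protein frees the E2F activators, which switch on genes of DNA replication, and the late E2F repressors E2f7 and E2f8 later shut those genes off. INK4 proteins block Cdk4 and Cdk6, while CIP/KIP proteins chiefly block Cdk2. In rodent beta cells Cdk4 and cyclin D2 are known to be needed for the growth of beta-cell mass after birth, and the INK4a product of Cdkn2a to accumulate with age and restrain replication.

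The marker lists bear on what the sorted cells were. The 13 measured beta-cell markers averaged 9.61 to 9.73 log2 units on the weaned and 9.65 to 9.77 on the suckling arrays. They ran from Mafa, with means of 5.83 (weaned) and 6.01 (suckling), to Iapp, with 12.48 and 12.51. The insulin gene Ins2 had means of 8.25 and 8.27, below those of Gcg given next. The 9 alpha, delta and PP cell markers also had a high average, at 8.74 to 9.01 against 8.65 to 8.97. Single markers ran from Hhex, with means of 3.96 (weaned) and 3.77 (suckling), to Gcg, with 11.95 and 12.13. None had an overall mean at background, but Hhex read 3.04 on suckling replicate 11, within the background range given below. Acinar markers, of which all 22 had a lower mean in weaned mice and 1 an unadjusted p under 0.05, averaged 3.95, 3.87 and 5.86 on weaned replicates 4, 5 and 12, and 7.35, 7.23, 4.19 and 4.87 on suckling replicates 2, 9, 11 and 12. Suckling replicates 2 and 9 therefore stood apart. Of 18 leukocyte markers 9 and of 12 endothelial markers 5 had an overall mean at or below 3.15 log2 units, the upper end of the values that Xist and Y-linked genes gave on arrays without their signal (1.80 to 3.15), which serves below as the background level. The fibroblast and stellate list had 7 of 12 such markers and the duct list 1 of 8. Not all markers of other cells were dim or equal: the macrophage gene C1qa had a weaned mean of 8.08 and a suckling mean of 7.74 log2 units. On the same list C1qb (3.72 weaned, 3.95 suckling) and C1qc (3.11 weaned, 3.21 suckling) were dim and had the lower mean in weaned mice. Of the 18 leukocyte markers 7 had a higher and 11 a lower mean in weaned mice. The leukocyte genes Fcer1g (0.48, unadjusted p = 0.00448) and Tyrobp (0.30, unadjusted p = 0.0212) were higher in weaned mice by limma. Lower were Cd3g (-0.25, unadjusted p = 0.027) and Muc1 of duct (-0.65, unadjusted p = 0.0206). Rgs5 (-0.54, unadjusted p = 0.0281) and Col1a2 (-0.29, unadjusted p = 0.0422) of stromal cells were also lower. All these were without overlap, and none passed the adjusted threshold by limma. Cd3g lay at background in both groups (2.21 weaned, 2.46 suckling), Tyrobp in suckling mice (3.12) and Rgs5 in weaned mice (2.71). An unadjusted p under 0.05 held for 16.7% of leukocyte, 12.5% of duct and 16.7% of fibroblast and stellate markers. The share was 6.56% over all probe sets. Of duct markers 3 had a higher and 5 a lower mean in weaned mice, and of fibroblast and stellate markers 3 and 9. The part of these cells in the results below was not tested. A code in the array descriptions also differs between all weaned and all suckling arrays, and its meaning is not stated, so weaning and that code cannot be told apart. In such bulk samples fewer cells of a type and less RNA per cell cannot be told apart either.

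No cyclin, CDK, inhibitor or E2F gene passed an adjusted p of 0.05 by limma, where 0.00844% of all probe sets did (0.00% higher, 0.00844% lower), and the smallest adjusted p among them was 0.59. At an unadjusted p under 0.05 there were 7 of the 67 probe sets (10.4%), 5 higher and 2 lower in weaned mice, beside 6.56% of all probe sets (3.50% higher, 3.06% lower), a share that would give 4.4 of 67. The groups of arrays did not overlap for 7 probe sets, 5 higher and 2 lower, beside 6.49% of all probe sets (3.46% higher, 3.03% lower). The weaned mean was above the suckling mean for 39 of the 67 probe sets and below it for 28. Their median difference was 0.046, against -0.0023 over all probe sets, and 64 of the 67 differences were smaller than 0.5 on the log2 scale in either direction. The median standard error of a difference was 0.14. The count at an unadjusted p under 0.05 was 3 without weaned replicate 4 and 4 without both suckling replicates 2 and 9. Adding the acinar marker mean to the fit turned the median to -0.0082 and the share of probe sets higher in weaned mice from 58.2% to 46.3%, and leaving out suckling replicates 2 and 9 turned them to -0.0025 and 47.8%. With each array centred on its own median, the share was 67.2% and the median 0.081.

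**Figure D1:**
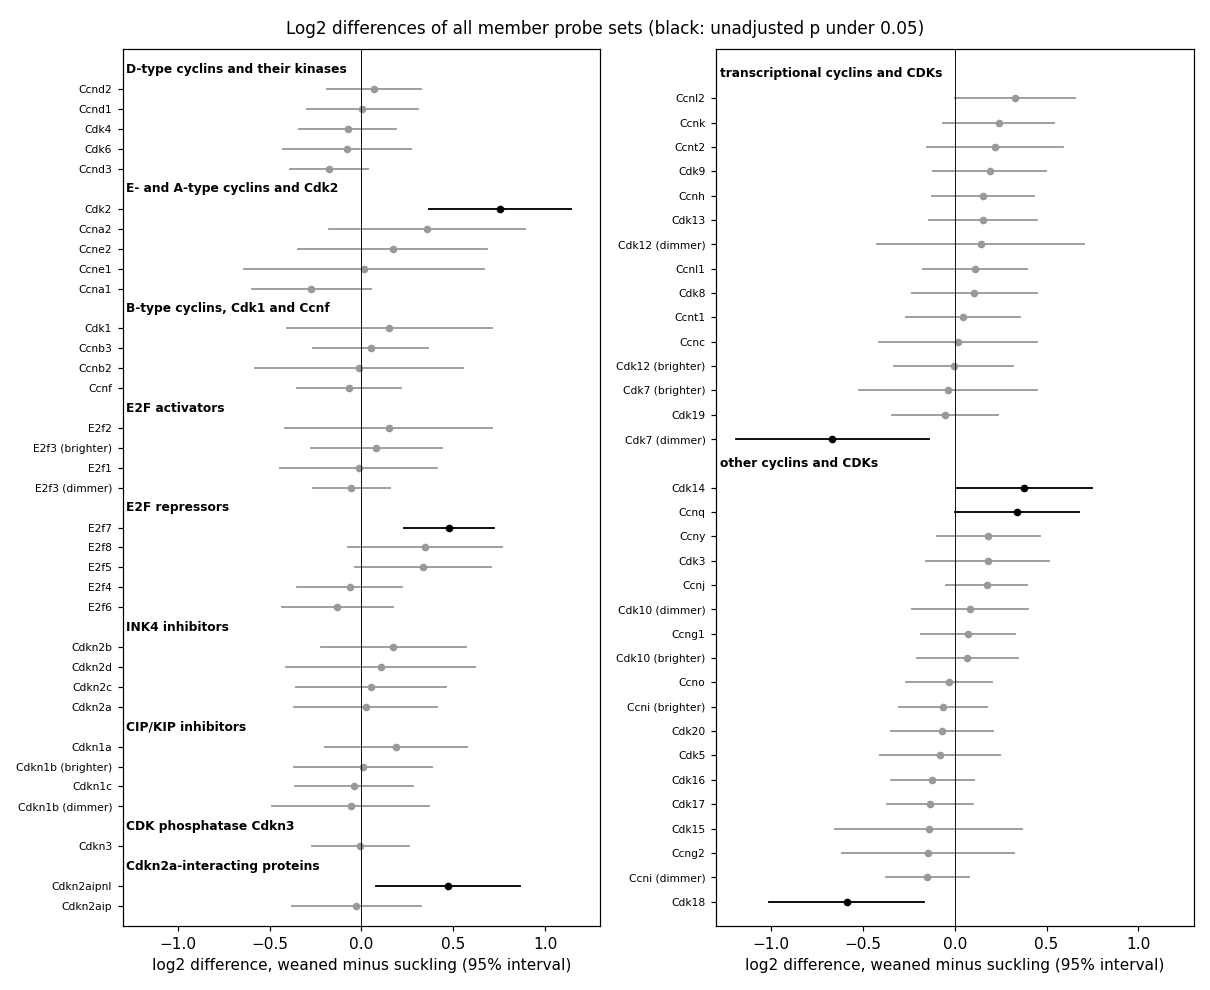
Log2 difference (weaned minus suckling, x axis) of each of the 67 probe sets, grouped by role, with its 95% interval from limma. Black marks the 7 probe sets with an unadjusted p under 0.05, 5 of them to the right of 0 and 2 to the left, and most of the other intervals span 0 well on both sides.

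The S-phase kinase gene Cdk2 (probe set 10373530) had the largest difference on the weaned side and the smallest p of the family. Its probe set read 4.20, 4.03 and 3.73 log2 units in the weaned mice (replicates 4, 5 and 12), against 3.52, 3.04, 3.09 and 3.28 in suckling replicates 2, 9, 11 and 12. Every weaned array lay above every suckling array, and suckling replicates 9 and 11 lay within the background range. The means were 3.99 ± 0.24 (SD, n = 3) and 3.23 ± 0.22 (n = 4), a difference of 0.75 (SE 0.16, 95% interval 0.37 to 1.14), or 1.69-fold. The unadjusted p was 0.00233 and the adjusted p 0.59 by limma. With 1 array left out the difference ran from 0.65 to 0.88, and it was 0.74 with the acinar covariate.

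E2f7, which encodes an atypical E2F that represses E2F target genes without a DP partner, followed. Probe set 10366277 gave 4.91, 4.71 and 4.98 log2 units on weaned replicates 4, 5 and 12, against 4.35, 4.43, 4.28 and 4.50 on the suckling arrays. Here too the groups did not overlap, and the replicates lay close together. The means were 4.87 ± 0.14 and 4.39 ± 0.10, a difference of 0.48 (SE 0.10, 95% interval 0.23 to 0.72, unadjusted p = 0.00251, adjusted p = 0.59, limma). It ran from 0.42 to 0.55 with 1 array left out and was 0.51 with the acinar covariate.

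Cdk18, a kinase of the PCTAIRE group that is not part of the division cycle engine, had the smallest p on the suckling side. Probe set 10357676 read 4.83, 4.15 and 4.39 log2 units in weaned mice and 4.95, 5.08, 4.89 and 5.26 in suckling mice. Weaned replicate 4 came within 0.1 log2 units of the lowest suckling array, while the other weaned arrays were clearly lower. The difference was -0.59 (SE 0.18, 95% interval -1.01 to -0.17, unadjusted p = 0.0127, adjusted p = 0.725, limma), and -0.78 to -0.44 with 1 array left out. Its relatives of the same group differed less, Cdk16 by -0.12 (SE 0.10) and Cdk17 by -0.14 (SE 0.10), both also lower in mean in weaned mice. Among the 7 probe sets at an unadjusted p under 0.05, Cdk2, E2f7 and Cdk18 kept that level without any single array, and the other 4 did not. With both suckling replicates 2 and 9 left out, Cdk18 had an unadjusted p of 0.0578 at a difference of -0.62, while Cdk2 (0.00678) and E2f7 (0.0199) stayed under 0.05.

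The promoter windows of these 3 genes are shown because E2F proteins control genes of DNA replication through short GC-rich words near the start site. Each window runs from 250 bases before to 50 bases after the annotated gene start, from RefSeq on GRCm38.p6, 5′ to 3′ on the gene's strand. Capitals mark a match to any of the E2F words TTTCGCGC, TTTGGCGC, TTTCCCGC and TTTGCCGC on either strand. The Cdk2 window lies on the minus strand of chr10:128705002-128705301, that of E2f7 on the plus strand of chr10:110745189-110745488, and that of Cdk18 on the minus strand of chr1:132139636-132139935.
Cdk2: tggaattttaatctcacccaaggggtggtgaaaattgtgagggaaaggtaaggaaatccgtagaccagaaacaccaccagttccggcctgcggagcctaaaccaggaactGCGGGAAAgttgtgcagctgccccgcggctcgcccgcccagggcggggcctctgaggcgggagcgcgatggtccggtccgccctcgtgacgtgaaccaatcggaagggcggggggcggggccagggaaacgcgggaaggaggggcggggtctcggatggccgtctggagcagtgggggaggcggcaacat
E2f7: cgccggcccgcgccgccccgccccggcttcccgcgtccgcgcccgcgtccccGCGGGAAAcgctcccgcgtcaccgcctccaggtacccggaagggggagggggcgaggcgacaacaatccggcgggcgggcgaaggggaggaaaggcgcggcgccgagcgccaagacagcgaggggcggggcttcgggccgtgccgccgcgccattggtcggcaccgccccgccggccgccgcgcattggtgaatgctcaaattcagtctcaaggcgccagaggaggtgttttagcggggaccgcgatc
Cdk18: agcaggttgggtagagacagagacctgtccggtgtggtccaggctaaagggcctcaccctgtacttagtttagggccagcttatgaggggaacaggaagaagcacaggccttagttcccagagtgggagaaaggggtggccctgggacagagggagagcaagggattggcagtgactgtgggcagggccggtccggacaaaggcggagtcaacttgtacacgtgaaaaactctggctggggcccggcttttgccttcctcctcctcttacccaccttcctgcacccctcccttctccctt
The Cdk2 and E2f7 windows each hold 1 match, to TTTCCCGC on the opposite strand, which reads GCGGGAAA as printed. It begins 140 bases before the gene start in Cdk2 and 198 bases before it in E2f7, and the Cdk18 window has no match to these letters. Of all 32851 RefSeq windows of this length 2.26% hold such a word, and of the 55 windows found for 48 of the 61 genes 6 do (10.9%), those of Cdk1, Cdk2, Cdkn2a, E2f2, E2f3 and E2f7. The values of Cdk1, Cdkn2a, E2f2 and E2f3 are given below, and each had an interval that covers 0. Other words were searched as well. TTTGAA was found in 18.2% of the 55 windows, beside 17.9% of all windows, and CCAAT in 49.1%, beside 37.4%. Whether E2F proteins act on any of these windows was not tested.

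**Figure D2:**
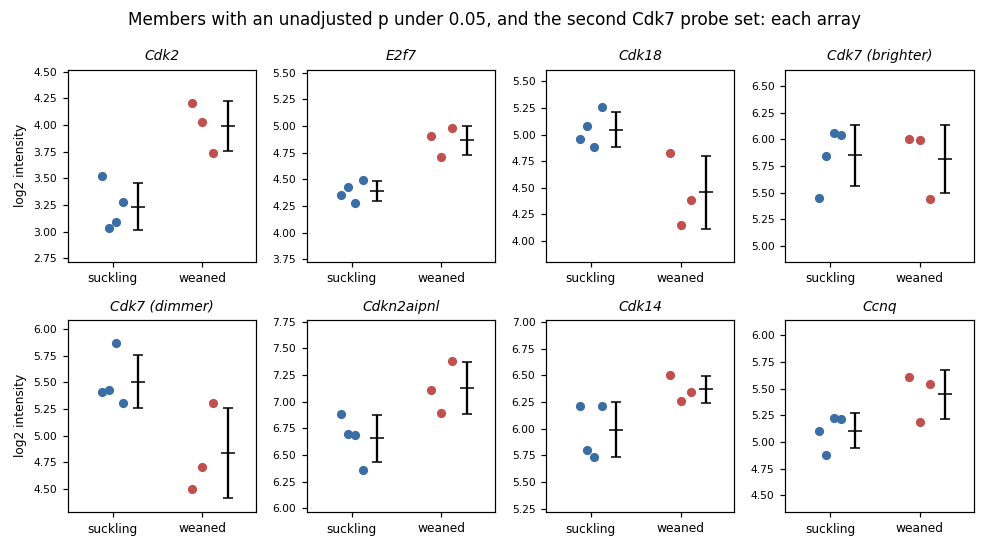
Log2 intensity (y axis, each panel spanning 1.8 log2 units) on every array for the 7 probe sets with an unadjusted p under 0.05 and for the second probe set of Cdk7. Points are single mice, blue for suckling and red for weaned, and the bars give mean ± SD. The groups are apart for Cdk2, E2f7, Cdk18, Cdkn2aipnl and Cdk14, and overlap for both Cdk7 probe sets and Ccnq.

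D-type cyclins and their kinases, the entry point of the cycle, differed by -0.18 to 0.067, none with an unadjusted p under 0.05. Ccnd1 (cyclin D1) read 8.57, 8.52 and 8.80 log2 units in weaned mice and 8.42, 8.58, 8.82 and 8.68 in suckling mice, a difference of 0.0034 (95% interval -0.30 to 0.31). Ccnd2 (cyclin D2) read 10.51, 10.47 and 10.19 against 10.23, 10.31, 10.37 and 10.38, a difference of 0.067 (95% interval -0.19 to 0.32). For both genes the weaned and suckling arrays were interleaved, and the intervals leave room for rises of up to about 0.3 log2 units. They leave room for falls of up to 0.30 in Ccnd1 and 0.19 in Ccnd2. The sign of both was unstable: with both suckling replicates 2 and 9 left out Ccnd1 was at -0.12, and with the acinar covariate Ccnd2 was at -0.021.

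Ccnd3, the cyclin D3 gene, was the only member of this group without overlap. It gave 5.62, 5.51 and 5.64 log2 units in weaned mice and 5.87, 5.70, 5.79 and 5.70 in suckling mice, so the gap between the groups was narrow. The difference of -0.18 (SE 0.09, 95% interval -0.39 to 0.04) had an unadjusted p of 0.0915 by limma. Cdk4, the main kinase partner of D cyclins in beta cells, read 9.10, 8.99 and 8.74 against 8.94, 9.01, 9.03 and 9.09, a difference of -0.076 (95% interval -0.34 to 0.19) in which weaned replicate 12 was the lowest array. Cdk6 was dim, at 3.30, 3.07 and 3.04 against 3.29, 3.12, 2.96 and 3.49, and its weaned mean lay at background.

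The weaned and suckling arrays overlapped for every INK4 and CIP/KIP probe set. All 4 INK4 genes had a slightly higher mean in weaned mice, with differences of 0.023 to 0.17 and a smallest unadjusted p of 0.332. Cdkn2a, which encodes INK4a and the p53 activator ARF from overlapping reading frames, read 3.37, 3.44 and 3.68 log2 units in weaned mice and 3.45, 3.31, 3.86 and 3.29 in suckling mice, a difference of 0.023 (95% interval -0.37 to 0.41). The array does not tell the INK4a and ARF transcripts apart here, since 1 probe set carries the gene. Its neighbour Cdkn2b (INK4b) read 5.42, 5.62 and 5.97 against 5.29, 5.75, 5.39 and 5.55, a difference of 0.17 (95% interval -0.22 to 0.57). For Cdkn2b, weaned replicate 12 lay above every suckling array and the other weaned arrays among them.

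Cdkn2c (INK4c), an inhibitor that the menin complex keeps active in mouse endocrine cells, gave 5.73, 5.50 and 5.88 log2 units against 5.35, 5.55, 5.72 and 5.999, a difference of 0.050 (95% interval -0.36 to 0.46). Cdkn2d (INK4d) gave 7.45, 6.86 and 6.97 against 6.60, 7.39, 6.95 and 7.01, a difference of 0.10 (95% interval -0.41 to 0.62). In both genes suckling arrays marked the low end and the spread within a group exceeded the difference between groups.

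Of the CIP/KIP inhibitors, Cdkn1a, a p53 target induced by stress, was measured on a probe set shared with 4930567H12Rik. It read 7.22, 7.35 and 6.90 log2 units in weaned mice and 6.70, 7.23, 7.05 and 6.91 in suckling mice, a difference of 0.19 (SE 0.16, 95% interval -0.20 to 0.57, unadjusted p = 0.294, limma). Weaned replicate 5 was the highest array, and the 2 groups overlapped. On the same array the mean of 19 p53 target genes was 5.62, against 5.20 to 5.42 on the other arrays, and that of 19 immediate early genes, which respond to cell dissociation, was 5.98, against 5.26 to 5.62. Both lists hold Btg2 and Dusp1, which were highest on that array (9.13 and 8.52), so the list means are not independent. The part of these lists in the Cdkn1a values was not tested. Over the whole p53 list 12 genes were higher and 7 lower in weaned mice, none passed the adjusted threshold, and Plk2, a kinase of the polo family, had the smallest p (-0.54, SE 0.22, unadjusted p = 0.0441).

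Cdkn1b, which encodes the inhibitor KIP1 that accumulates in resting cells, was read by 2 probe sets. Probe set 10542317 gave 8.84, 8.41 and 8.22 log2 units in weaned mice and 8.52, 8.52, 8.59 and 8.30 in suckling mice, a difference of 0.0078 (95% interval -0.37 to 0.39). Probe set 10542310 differed by -0.058 (95% interval -0.48 to 0.37), with weaned arrays at both the top (7.28) and the bottom (6.53). The imprinted inhibitor gene Cdkn1c read 4.20 on each of the 3 weaned arrays and 4.46, 4.18, 4.39 and 3.95 on the suckling arrays, a difference of -0.043 (95% interval -0.36 to 0.28). Cdkn3, which encodes a phosphatase that acts on CDKs, differed by -0.0055 (SE 0.11).

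**Figure D3:**
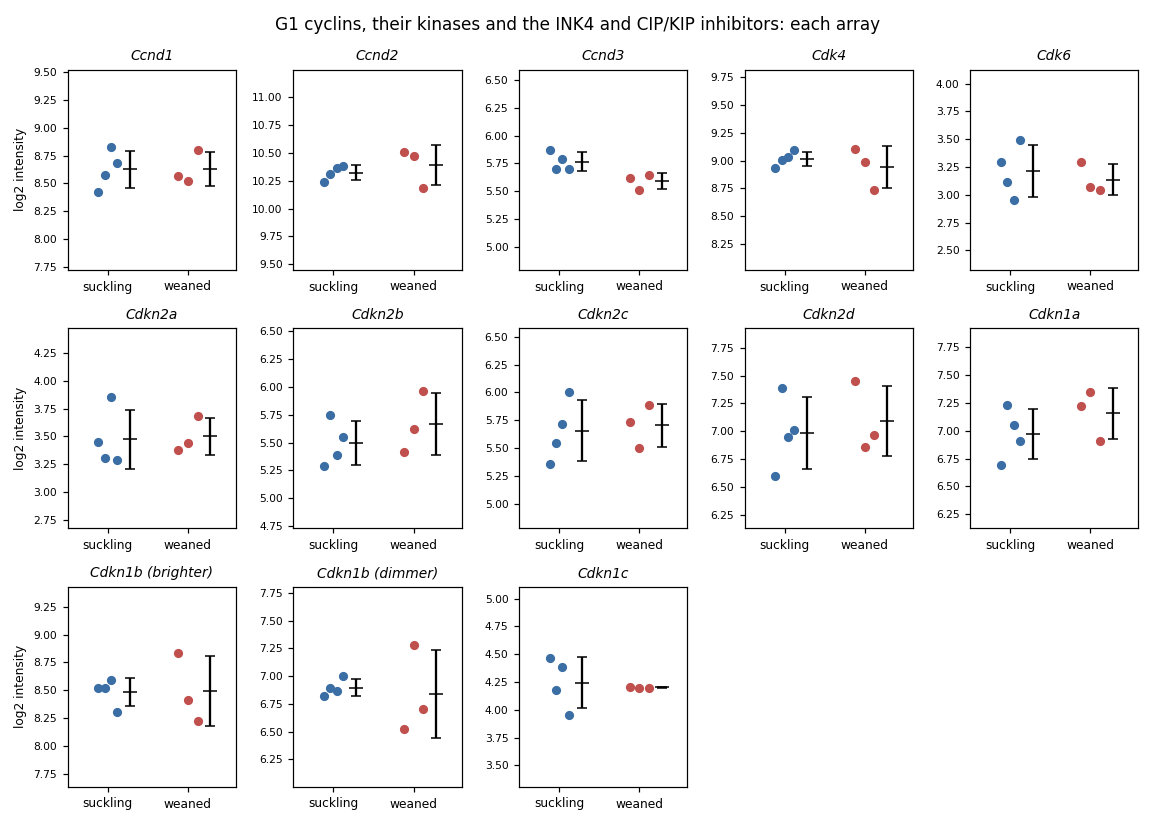
Log2 intensity (y axis, each panel spanning 1.8 log2 units) on every array for D-type cyclins, Cdk4, Cdk6 and the INK4 and CIP/KIP inhibitors. Points are single mice, blue for suckling (4) and red for weaned (3), with mean ± SD beside them. Ccnd3 is the only panel in which the groups do not overlap, and the differences of the other panels lie between -0.08 and 0.19.

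Ccna2, the cyclin A2 gene, read 5.63, 6.02 and 6.37 log2 units in weaned mice and 5.81, 5.86, 5.20 and 5.72 in suckling mice, a difference of 0.36 (SE 0.23, 95% interval -0.17 to 0.89, unadjusted p = 0.157, limma). Weaned replicate 12 was the highest array and suckling replicate 11 the lowest. The difference was 0.17 at the lowest, without weaned replicate 12, and 0.55 at the highest with 1 array left out, and 0.60 with the acinar covariate (unadjusted p = 0.016, limma).

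The cyclin E genes act with Cdk2 at the start of DNA synthesis, and their groups overlapped. Ccne1 gave 5.30, 4.31 and 4.90 log2 units in weaned mice and 4.55, 5.08, 5.16 and 4.49 in suckling mice, a difference of 0.016 (95% interval -0.64 to 0.67). Ccne2 gave 5.48, 4.67 and 5.43 against 5.17, 5.14, 5.02 and 4.76, a difference of 0.17 (95% interval -0.35 to 0.69). Weaned replicate 5 was the lowest of all arrays for both. Ccna1, the cyclin A of the germ line, had a weaned mean at background and differed by -0.27 (SE 0.14, unadjusted p = 0.089).

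In the mitotic group, the kinase gene Cdk1 read 4.83, 4.62 and 5.45 log2 units in weaned mice and 4.42, 4.88, 4.89 and 5.07 in suckling mice, a difference of 0.15 (95% interval -0.40 to 0.71). Ccnb2 (cyclin B2) read 6.36, 5.92 and 6.33 against 6.01, 5.74, 6.64 and 6.48, a difference of -0.013 (95% interval -0.58 to 0.55). Suckling arrays held both extremes of Ccnb2, while for Cdk1 weaned replicate 12 was highest and suckling replicate 2 lowest. Ccnf, which encodes cyclin F of a ubiquitin ligase, differed by -0.068 (SE 0.12), and Ccnb3, a cyclin of meiosis, lay at background in both groups.

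None of the 4 probe sets of E2F activators had an unadjusted p under 0.05. E2f1 read 5.54, 4.81 and 5.34 log2 units in weaned mice and 5.15, 5.23, 5.16 and 5.42 in suckling mice, a difference of -0.016 (95% interval -0.44 to 0.41), with weaned arrays at both ends. E2f2 read 3.69, 3.52 and 4.42 against 3.85, 3.96, 3.68 and 3.41, a difference of 0.15 (95% interval -0.42 to 0.71) that was -0.12 without weaned replicate 12. E2f3 was read at 3.79, 4.12 and 4.10 against 3.65, 3.95, 3.92 and 4.18 by probe set 10408477 (0.081, 95% interval -0.27 to 0.44), while its second probe set lay at background in both groups.

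Among the E2F repressors, E2f8, the closest relative of E2f7, read 4.12, 3.64 and 4.38 log2 units in weaned mice and 3.70, 3.67, 3.86 and 3.59 in suckling mice. Weaned replicates 4 and 12 lay above all suckling arrays and weaned replicate 5 among them, and the difference was 0.34 (SE 0.18, 95% interval -0.08 to 0.77, unadjusted p = 0.094, limma). E2f5, which represses with the pocket protein p130, gave 5.32, 5.10 and 5.17 against 4.63, 4.68, 5.20 and 4.95, a difference of 0.33 (SE 0.16, unadjusted p = 0.0711). E2f4 and E2f6, repressors of resting cells, differed by -0.064 (SE 0.12) and -0.13 (SE 0.13). The repressors as a group had a median of 0.33 over 5 genes and the activators 0.033 over 4 probe sets, and whether these groups differ was not tested.

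**Figure D4:**
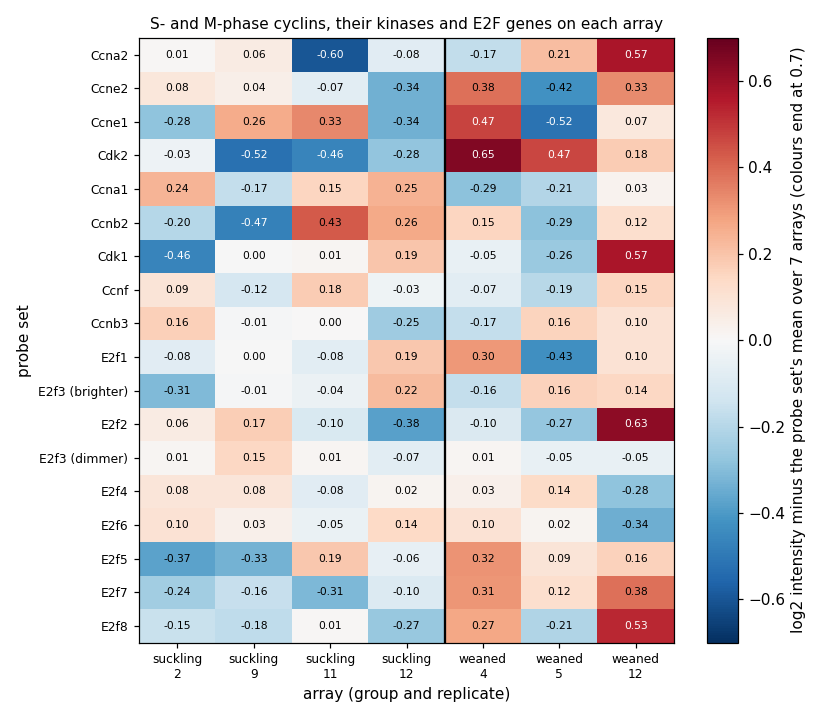
Log2 intensity minus the probe set's own mean over the 7 arrays, for the E-, A- and B-type cyclins, Cdk1, Cdk2, Ccnf and the E2F genes (rows) on each array (columns), with the value in each cell. E2f7 and Cdk2 are above 0 on all weaned and below 0 on all suckling arrays, while Ccna2, Cdk1, E2f2 and E2f8 reach 0.53 to 0.63 on weaned replicate 12 and stay within 0.27 of 0 on weaned replicates 4 and 5.

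Among the genes of the S-phase, mitotic and E2F groups, weaned replicate 12 was the highest array for Ccna2, Cdk1, E2f2, E2f7 and E2f8, and weaned replicate 5 the lowest for Ccne1, Ccne2, Ccnf and E2f1. Other members of these groups went the other way: weaned replicate 12 was the lowest array for E2f4 (6.74) and E2f6 (5.17), and weaned replicate 5 the highest for E2f4 (7.16). Mki67, the usual marker of dividing cells, read 5.27, 4.79 and 5.47 log2 units in weaned mice and 5.27, 5.35, 4.95 and 5.42 in suckling mice. Weaned replicate 5 was its lowest and weaned replicate 12 its highest array. Not all proliferation markers did the same, as weaned replicate 5 was the highest array for Ube2c (5.92) and Mcm2 (5.70). The mean of 30 such markers was highest on weaned replicate 12 (5.19), while on weaned replicate 5 (4.91) it was above the suckling range (4.77 to 4.90). This order of weaned replicates 5 and 12 did not extend to all 67 member probe sets either. Of these, weaned replicate 12 was the highest array for 12 and the lowest for 11, and weaned replicate 5 the highest for 9 and the lowest for 8. Weaned replicate 4 was the highest for 18 and suckling replicate 9 for 2, and suckling replicate 2 was the lowest for 15. Weaned replicate 12 also had the most acinar signal of the weaned arrays (5.86 against 3.95 and 3.87), and the part of acinar RNA in these values was not tested beyond the covariate.

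Cyclins and CDKs of transcription phosphorylate RNA polymerase II or the Mediator complex, and most do not time division, though Cdk7 with Ccnh also activates other CDKs. These genes were higher in mean for 11 of 15 probe sets, with a median of 0.11. Cdk7, on 1 of its probe sets, was the only one of them with an unadjusted p under 0.05, and it was lower. Ccnl2, a cyclin of RNA splicing, read 7.17, 7.12 and 7.09 log2 units in weaned mice and 6.51, 6.84, 6.79 and 7.08 in suckling mice. The lowest weaned array lay just above the highest suckling array, and the difference was 0.33 (SE 0.14, unadjusted p = 0.0507, limma). Ccnk, partner of Cdk12 and Cdk13, differed by 0.24 (SE 0.13), Ccnt2 and Cdk9 of the elongation factor P-TEFb by 0.22 (SE 0.16) and 0.19 (SE 0.13), and Ccnh, partner of Cdk7, by 0.15 (SE 0.12). None of these passed an unadjusted p of 0.05.

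Cdk7, the kinase that activates other CDKs and is part of the general factor TFIIH, gave conflicting readings. Probe set 10411709 read 4.50, 4.70 and 5.31 log2 units in weaned mice and 5.41, 5.43, 5.87 and 5.31 in suckling mice, a difference of -0.67 (SE 0.22, unadjusted p = 0.0197, adjusted p = 0.757, limma). Probe set 10411711 read 6.004, 5.997 and 5.44 against 5.45, 5.84, 6.06 and 6.04, a difference of -0.035 (SE 0.21). Weaned replicate 12 was the highest weaned array on the former and the lowest of all arrays on the latter, so no single value is given for Cdk7. The former difference had an unadjusted p of 0.0747 without weaned replicate 4 and 0.0665 without weaned replicate 5.

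The remaining genes with an unadjusted p under 0.05 are less tied to the division cycle. Cdk14, a kinase that acts with cyclin Y in Wnt signalling, read 6.51, 6.26 and 6.34 log2 units in weaned mice and 6.21, 5.80, 5.74 and 6.22 in suckling mice (0.38, SE 0.16, unadjusted p = 0.0477, adjusted p = 0.757, limma). Its partner Ccny differed by 0.18 (SE 0.12). Cdkn2aipnl, which is named for its likeness to a Cdkn2a-interacting protein and is itself no CDK inhibitor, read 7.11, 6.89 and 7.38 against 6.89, 6.70, 6.68 and 6.36 (0.47, SE 0.17, unadjusted p = 0.0243). The groups were apart in Cdk14 and Cdkn2aipnl, each by under 0.1 log2 units.

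Ccnq, the partner of Cdk10, read 5.61, 5.18 and 5.54 log2 units in weaned mice and 5.10, 4.88, 5.23 and 5.22 in suckling mice (0.34, SE 0.14, unadjusted p = 0.0497), with weaned replicate 5 among the suckling arrays. Its kinase Cdk10 differed by 0.068 (SE 0.12) and 0.083 (SE 0.13) on 2 probe sets. With 1 array left out, an unadjusted p under 0.05 remained in 5 of 7 fits for Cdkn2aipnl, 2 of 7 for Cdk14 and 1 of 7 for Ccnq. The other cyclins and CDKs of this group, Cdk5 of neurons and endocrine cells among them (-0.081, SE 0.14), ranged from -0.15 to 0.18, and Ccng1, a p53 target, differed by 0.073 (SE 0.11).

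Partners of the system outside these gene families were taken from a list of 47 regulators, of which 46 were measured, 1 probe set each. None passed the adjusted threshold, and 4 had an unadjusted p under 0.05, with 2 in each direction. This is 8.70% of the list, near the 6.56% of all probe sets, and the 4 genes are named by their rank only. Cdk2ap2, which encodes a protein that binds Cdk2, read 7.64, 7.34 and 7.42 log2 units in weaned mice and 7.82, 7.81, 7.87 and 7.87 in suckling mice (-0.37, SE 0.10, unadjusted p = 0.00678). Cdt1, which loads the replicative helicase and is an E2F target, read 3.94, 3.92 and 4.08 against 3.23, 3.85, 3.45 and 3.30 (0.52, SE 0.16, unadjusted p = 0.0137). In both genes the groups did not overlap. Bmi1, a Polycomb gene that represses Cdkn2a, differed by -0.33 (SE 0.10, unadjusted p = 0.0147), beside the difference of 0.023 in Cdkn2a itself, and Cables1, which links CDKs to a kinase, by 0.34 (SE 0.14, unadjusted p = 0.0473).

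Of 30 proliferation markers 25 were higher and 5 lower in weaned mice, with a median of 0.20, and the 7 with an unadjusted p under 0.05 were on the higher side, or 23.3% of the list beside 3.50% of all probe sets. The list holds 1 probe set per gene, unlike that share. In a separate limma fit with 1 probe set per gene, 875 of 19938 genes were higher at that level. None of the 30 markers passed the adjusted threshold. The 4 smallest p values belonged to Mcm3 (0.63, SE 0.14), Mcm4 (0.56, SE 0.13) and Mcm7 (0.80, SE 0.19) of the replicative helicase and Rrm1 (0.37, SE 0.10) of ribonucleotide reductase, all genes of DNA replication. Averaged per array, the list gave 5.12, 4.91 and 5.19 log2 units in weaned mice, each above the suckling range of 4.77 to 4.90. The gap was very narrow, with weaned replicate 5 at 4.9095 and suckling replicate 12 at 4.9039. The replication genes had been seen to be higher in an earlier look at these arrays, so this is no independent support for Cdk2 or E2f7.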

How the data were processed

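Total RNA of sorted cells from 7 mice was measured on 1 Affymetrix array per mouse. The deposited intensity values, 1 per probe set and array on a linear scale from 1.45 to 12755, came from the authors' processing, for which the submitters' processing notes name RMA and Partek 6.6 without order or settings. RMA normalizes all arrays jointly, and dim probe sets can show compressed differences after it. Array medians were 14.1 to 14.9. All 7 value columns were used. Here log2 was taken, and limma 3.58.1 (lmFit and eBayes, R 4.3.3, two-sided) was fitted to all 35556 probe sets without a covariate, so that the Cdkn1a probe set, which has 2 symbols, entered the same fit. No dim probe set was removed. Of the probe sets 21789 carry 1 gene symbol, 1621 several and 12146 none. For 21698 of the former the gene ID was found in the RefSeq table used for current symbols. Gene lists used the brightest probe set of a gene. The fit was tested on simulated data. Alternatives were an intensity trend with robust prior, quantile normalization, centring, level filters, other probe set selections, array weights, an acinar covariate and leaving out arrays. The background level was set after the values were seen. The members and lists were chosen with earlier results of these data known. Named in full are genes with an unadjusted p under 0.05 and a fixed set of G1, S-phase, mitotic and E2F genes, with the smallest p values of each role and list. Partners and relatives of these genes were named after their values were seen. Mice are separate animals, and amplification scatter cannot be separated from differences between mice. The number of arrays limits the precision.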

Additional observations from a re-analysis of the deposited data

Results flagged for a closer look

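In 2 of the 67 probe sets 1 suckling array lay far from the other 3, by Dixon's criterion at the 95% level, which chance meets in about 1 in 20 groups. Cdk19, a kinase of the Mediator complex, read 4.55 log2 units on suckling replicate 11, where the others read 4.77 to 4.80. Cdk8, its paralogue, read 8.50 on suckling replicate 12, where the others read 8.08 to 8.13.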

How the results depend on the processing

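The count of 0 genes past the adjusted threshold held in all 17 alternative fits and at an adjusted p of 0.1. The count at an unadjusted p under 0.05 was 7, and it was 4 without both suckling replicates 2 and 9 and ran from 3 to 8 with 1 array left out, and it was 5 to 8 in the other fits. The median difference of 0.046 was -0.0082 with the acinar covariate, 0.081 with centred arrays, 0.020 with quantile normalization, -0.0025 without both suckling replicates 2 and 9, and 0.014 to 0.073 with 1 array left out. None of the 7 probe sets at an unadjusted p under 0.05 changed sign in any fit. The other probe set of Cdk7 did, from -0.035 to 0.15 without weaned replicate 12, and up to 16 of the 67 probe sets did in a single fit, the one without weaned replicate 12. Centring each array on its median moved the median of all probe sets from -0.0023 to 0.032 and their split at an unadjusted p under 0.05 from 1246 higher and 1087 lower to 1611 and 751. The cause of these shifts was not tested. No paired analysis was made, because the labels do not pair weaned with suckling mice. What the replicate numbers stand for is not stated, and the groups share only number 12. Dim probe sets, such as those of Ccnb3, Ccna1, Cdk3 and Cdk6, lie near background, so differences there may be understated.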
